A study of Caenorhabditis elegans with 4 samples.

Results

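The regions described are the SEA-2 ChIP-seq peaks at promoters of the X chromosome away from tRNA genes in Caenorhabditis elegans. A peak was taken when its summit lay no more than 1000 bp upstream or 200 bp downstream of an annotated transcript start on X (all genes except pseudogenes and piRNA genes) and more than 500 bp from every tRNA gene. Of the 3912 peaks of the pooled list, 932 lay on X. Of these, 524 were in a promoter window, 57 of them within 500 bp of a tRNA gene, which left 467 X promoter peaks. They are set against the 1537 autosomal promoter peaks chosen in the same way and the 408 X peaks outside promoters and away from tRNA genes.

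ChIP-seq recovers and sequences the DNA attached to a protein, here SEA-2 fused to GFP, in whole L3 larvae given as pooled male and female and of unknown age. All 4 biological replicates form 1 group. They share strain OP193, with the mutation unc-119(ed3) and the transgene wgIs193, which carries sea-2 joined to the tags TY1 EGFP FLAG C and a copy of unc-119. The data come from this single transgenic line, and no worms without the transgene are among the samples. For replicates 1 and 2 the labels name the CGC as source and sizes of 150 to 350 bp. For replicates 3 and 4 they name Michael Snyder as source and sonication. Whole larvae were used, so a peak cannot be assigned to a cell type. The replicate lists held 23684 peaks in replicate 1 and 30000 in each of the others, and they include background regions because they are the input of the reproducibility step. The final list, kept from the pooled list by the threshold of that step, held 312.

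SEA-2 is a zinc finger protein. It is known as an autosomal signal in the count of X chromosomes against autosomes that sets sex, where it acts on the sex switch gene xol-1, and it has a further role in the timing of larval development. In XX animals a dosage compensation complex loads onto both X chromosomes at recruitment sites and spreads to promoters, and it lowers transcription from X. Many C. elegans transcripts are trans-spliced, so an annotated start can lie downstream of the place where transcription begins.

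The sequences of 6 strong X promoter peaks are printed because they show the short words that recur at these summits. Each covers 50 bases to each side of the pooled summit on the plus strand of WBcel235 (ce11), read from the RefSeq assembly, and overlaps no annotated exon. Capitals mark every GAGA and ACGCAG and their reverse complements TCTC and CTGCGT. The first 4 are the strongest X promoter peaks whose window holds no exon, and the other 2 are the next strongest with GAGA and with GTCTC. They lie at chrX:10568932-10569032 (bet-2), chrX:4458085-4458185 (aps-2), chrX:1454509-1454609 (cebp-1), chrX:2242962-2243062 (AH9.7, 394 bp upstream of rpl-11.2), chrX:17513675-17513775 (nhr-1) and chrX:16929706-16929806 (C30E1.9).
bet-2: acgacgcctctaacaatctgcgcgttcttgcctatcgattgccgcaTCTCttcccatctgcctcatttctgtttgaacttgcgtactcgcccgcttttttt
aps-2: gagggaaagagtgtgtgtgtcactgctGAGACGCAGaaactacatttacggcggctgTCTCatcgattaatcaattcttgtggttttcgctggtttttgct
cebp-1: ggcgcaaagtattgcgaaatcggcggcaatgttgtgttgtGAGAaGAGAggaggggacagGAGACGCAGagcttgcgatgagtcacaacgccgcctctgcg
AH9.7: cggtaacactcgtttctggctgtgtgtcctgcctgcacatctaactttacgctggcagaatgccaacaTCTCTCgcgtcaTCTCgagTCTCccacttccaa
nhr-1: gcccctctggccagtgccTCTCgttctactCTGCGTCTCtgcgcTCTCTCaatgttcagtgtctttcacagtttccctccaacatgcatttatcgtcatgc
C30E1.9: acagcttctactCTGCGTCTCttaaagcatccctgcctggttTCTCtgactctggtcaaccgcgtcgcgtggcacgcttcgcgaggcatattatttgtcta
The windows of aps-2, cebp-1, nhr-1 and C30E1.9 hold GAGACGCAG on one strand or the other. Their GC content ran from 45.5% at aps-2 to 57.4% at cebp-1.

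The strongest X promoter peak lay at chrX:11605993-11606105, 33 bp upstream of the ncRNA gene F52D10.7, with F52D10.12 also in the window, and 603 bp upstream of ftt-2, which encodes a 14-3-3 protein. Its pooled signal value of 198 was the third highest of the pooled list. A signal value is the peak caller's own measure of strength on a scale that is not stated. It ranked 2, 4400, 3 and 1 in replicates 1 to 4, so it was near the top in every replicate except replicate 2. At 113 bp it was narrower than the usual 340 bp. It overlaps the member of order 9 at F52D10.9 (signal value 101), and both share 1 peak in each replicate, so they are not separate sites there. The second, at chrX:5812028-5812367 (signal value 151), had RNA gene starts only, those of F13D11.9, 47 bp away, and F13D11.13, and ranked 8, 211, 4 and 2.

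Several of the next peaks lay at single protein-coding genes. The peak 291 bp upstream of bet-2, a bromodomain gene, had a signal value of 136 and ranks 82, 27, 12 and 16, and no other X promoter peak had a lowest rank as good as its 82. The peak 137 bp upstream of aps-2, a subunit of the clathrin adaptor AP-2, had a signal value of 118 and ranks 25, 5, 588 and 58. The peak 691 bp upstream of cebp-1, a bZIP transcription factor gene, had 103 and ranks 55, 45, 1379 and 32. Replicate 3 stood far below the others at both aps-2 and cebp-1. The peak at chrX:8810950-8811289 (signal value 111) had its summit 22 bp downstream of the start of R04E5.9 and 985 bp upstream of cnnm-2, a gene related to magnesium transporters. It ranked 143, 31, 24 and 195. The AH9.7 peak (102) lay upstream of rpl-11.2, a gene of the large ribosomal subunit, in the window of the RNA gene linc-78, and ranked 23, 169, 81 and 185. The nuclear hormone receptor gene nhr-1 had a peak 338 bp upstream (101) with ranks 91, 127, 29 and 1658.

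Among the other 11 of the 20 strongest, signal values ran from 97.01 at C30E1.9 to 83.3 at apa-2. The genes with starts in these windows were grk-1 (a kinase of G protein-coupled receptors, with F19C6.11 nearest), nspc-17, the zinc finger gene zfp-3, serp-1.1, F09A5.11 with mir-54, mir-55 and mir-56 of the mir-51 microRNA family, F46F2.9, sms-2 (sphingomyelin synthase), T04C10.8 with epn-1 (the endocytic adaptor epsin) and T04C10.7, nipi-3 (a Tribbles pseudokinase, known to restrain CEBP-1) and apa-2. The gene apa-2 encodes another AP-2 subunit. The C30E1.9 peak ranked 187, 79, 26 and 31 and the F09A5.11 peak 130, 52, 48 and 73. The apa-2 peak ranked 92, 54, 248 and 12625, and the nspc-17 peak 16, 7616, 72 and 775.

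**Figure D1:**
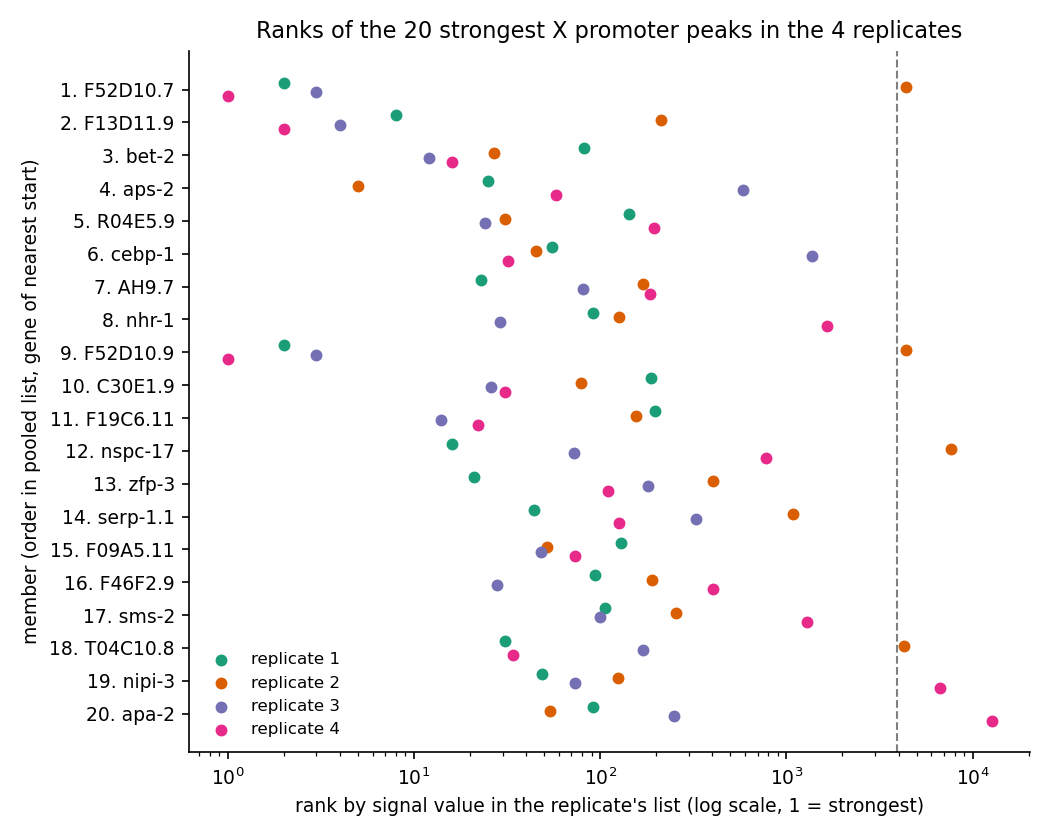
Ranks of the 20 strongest X promoter peaks (rows, in order of pooled signal value, named by the nearest annotated start) in the list of each replicate, on a log axis where 1 is the strongest peak. The dashed line is rank 3912, the number of strongest peaks taken from each replicate: bet-2 lies between ranks 12 and 82 in all 4 replicates, whereas F52D10.7, F52D10.9, nspc-17 and T04C10.8 fall beyond the line in replicate 2 and nipi-3 and apa-2 in replicate 4.

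Over all 467 X promoter peaks the signal value ran from 30.2 to 198 with a median of 36.3, against a median of 36.1 at autosomal promoter peaks and 34.1 at X peaks outside promoters. The −log10 q-value had a median of 0.184 and ran from 0.0177 to 2.56, so most of these peaks are weak by the authors' own q-value. The final list kept 52 of the 467 (11.1%, exact interval 8.43 to 14.3%), against 162 of the 1537 autosomal promoter peaks (10.5%, 9.05 to 12.2%) and 17 of the 408 X peaks outside promoters (4.17%, 2.45 to 6.59%). The background was 7.98% over all pooled peaks and 10.7% over promoter peaks on all chromosomes. The share kept on X was thus near that of promoter peaks in general. Kept peaks had signal values from 59.6 to 198 and those not kept from 30.2 to 57.3, since the final list is the strongest part of the pooled one.

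Near the limits of the choice, the X promoter peak closest to the downstream limit had its summit 198 bp downstream of R08E3.6 (signal value 32.5), and the closest X peak outside lay 1002 bp upstream of linc-22 (36.6). The X promoter peak nearest to a tRNA gene was 511 bp from F59C12.t2 (30.9), and the most distant peak left out for its tRNA gene was 472 bp away, at C03B1.16 (31.7).

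X held more of the promoter peaks than its share of promoter sequence in every replicate. Among the 3912 strongest peaks of each replicate, 405, 436, 432 and 408 were X promoter peaks in replicates 1 to 4, against 1447, 1244, 1435 and 1317 autosomal ones. X therefore had 21.9, 26.0, 23.1 and 23.7% of promoter peaks away from tRNA genes, and 17.7% of promoter-window length. The excess was 5.94 ± 1.71 percentage points (mean and SD, n = 4), positive in 4 of 4 replicates (exact sign-flip permutation test, two-sided, p = 0.125, the smallest this design allows). It was 6.20 points over replicates 1 and 2 and 5.69 points over replicates 3 and 4, so it stood in both sources of worms. X promoter peaks made up 23.3% of the promoter peaks in the pooled list and 24.3% in the final list.

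The excess was not a contrast of X with all autosomes alike. The ratio of a chromosome's share of promoter peaks to its share of window length averaged 1.34 ± 0.10 on X, 1.23 ± 0.22 on I, 1.12 ± 0.05 on III, 0.961 ± 0.039 on II, 0.783 ± 0.052 on IV and 0.725 ± 0.085 on V (SD, n = 4). X ran from 1.23 to 1.47 over the replicates and chromosome I from 1.03 to 1.53, so these overlap. Chromosome I was above X in replicate 1 and below it in the others, and chromosomes II to V were below X in every replicate. With more of the weak peaks taken, the X share fell towards the window share: it was 20.5, 22.1, 20.9 and 20.6% when every peak of the replicate lists was used.

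**Figure D2:**
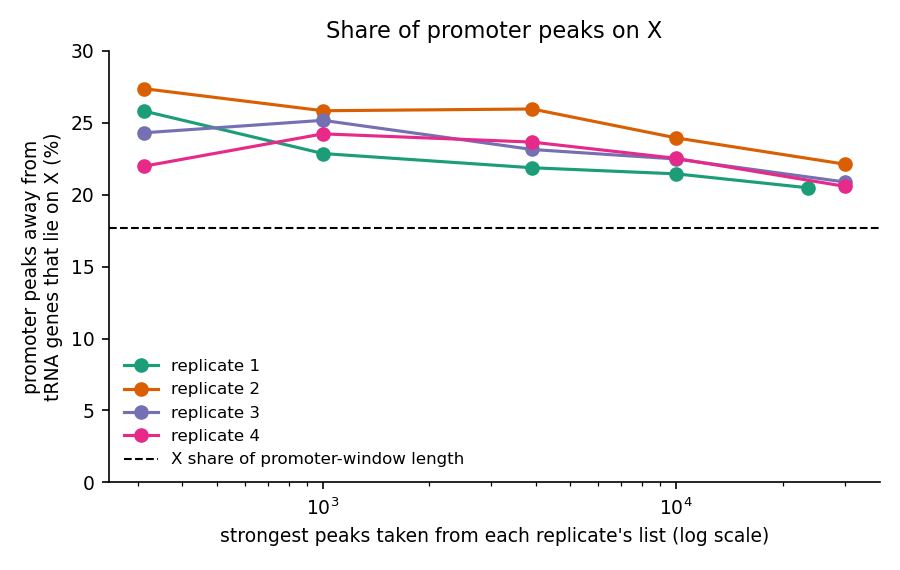
Share of promoter peaks away from tRNA genes that lie on X (vertical axis, percent) against the number of strongest peaks taken from each replicate (log axis), 1 line a replicate, with the X share of promoter-window length (17.7%) dashed. All 4 lines lie above the dashed line at every number, and they end between 20.5 and 22.1%.

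X promoter peaks were found in single replicates about as often as autosomal promoter peaks and more often than X peaks outside promoters. A pooled peak counted as found when it shared at least 1 bp with the 3912 strongest peaks of a replicate. The shares found were 52.5, 37.9, 43.9 and 34.0% of X promoter peaks in replicates 1 to 4, against 53.9, 32.0, 40.4 and 31.0% of autosomal promoter peaks and 41.9, 21.8, 27.5 and 25% of X peaks outside promoters. The background over all pooled peaks was 49.7, 28.7, 35.4 and 28.1%. The X promoter share was higher than the autosomal one in 3 of 4 replicates, by 2.75 ± 3.08 points (exact sign-flip permutation test, p = 0.25), a difference smaller than its spread, and by −2.29 points among pooled peaks with a −log10 q-value of at least 2. It was higher than that of X peaks outside promoters in 4 of 4 replicates, by 13.03 ± 3.79 points (exact sign-flip permutation test, p = 0.125). That difference was 6.54 points with the 312 strongest peaks, 5.88 points with all peaks of the replicate lists and 7.98 points among pooled peaks with a −log10 q-value of at least 2. The pooled list was made from the reads of these same replicates, so the shares describe how the lists relate and are no independent check.

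At least 3 replicates held 110 of the X promoter peaks (23.6%), against 301 of the autosomal ones (19.6%) and 42 of the X peaks outside promoters (10.3%), with a background of 15.8%. All 4 replicates held 49 of the X promoter peaks (10.5%, background 6.19%), and no replicate held 69 (14.8%, background 19.6%). Strength separated them: of the strongest 117 X promoter peaks, 83 were found in at least 3 replicates, and of the weakest 116, 9 were. Of the 52 peaks in the final list, 33 were among the strongest peaks of all 4 replicates and 49 of at least 3. None of the 52 was missing from the strongest peaks of replicate 1, whereas 6 were missing from those of replicate 2, 6 from those of replicate 3 and 10 from those of replicate 4.

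Some final-list peaks had widely spread ranks. At 2 of the 52 a replicate had no peak at all: the ttyh-1 peak ranked 244, 1611 and 12236 in replicates 1 to 3 and was absent in replicate 4, and the F49E10.12 peak ranked 220, 34 and 877 in replicates 1, 2 and 4 and was absent in replicate 3. Among those with a peak in all 4 replicates, the 5 largest differences of rank were at apa-2, given above, and at the 4 that follow. The peak 113 bp upstream of hsp-3, a BiP chaperone gene of the endoplasmic reticulum, ranked 50 and 110 in replicates 1 and 2 but 20724 and 4215 in replicates 3 and 4. The peak at sucl-1, which encodes a subunit of succinyl-CoA ligase, ranked 163, 3748, 144 and 13661. The C14F11.14 peak, 139 bp upstream of T13C5.6, ranked 265, 326, 11365 and 409, and the K02A6.3 peak ranked 129, 181, 5676 and 9034. The hsp-3 and K02A6.3 peaks were strong in the replicates with the CGC label and weak in the other pair. Replicates 1 and 2 differ from replicates 3 and 4 in both the source of worms and the fragmentation entry, and these cannot be told apart.

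X promoter summits lay closer to the annotated start than positions of the windows in general. The median position was −187 bp at X promoter peaks and −170 bp at autosomal ones, and −353 bp over all positions of the X windows and −332 bp over those of the autosomal windows (every 20th base, relative to the nearest start). In the replicates the medians were −230, −146, −284.5 and −246.5 bp at X promoter peaks. At autosomal ones they were −181, −174.5, −203 and −232 bp, nearer to the start than on X in all but replicate 2. The last 200 bp before the start held the most, with 28.9% of X promoter summits and 32.5% of autosomal ones, where 19.0% of X and 19.4% of autosomal window positions lie. The share upstream follows from the window, which reaches further upstream than downstream: 361 of the 467 X promoter summits (77.3%) were upstream, and 79.1% of autosomal ones, with 81.7% of X and 80.5% of autosomal window positions. In the replicates 80.0, 72.7, 81.7 and 80.6% of X promoter summits were upstream, against 80.2, 72.4, 80.1 and 78.4% of autosomal ones. The difference of 0.989 ± 1.12 points was smaller than its spread (3 of 4 replicates positive, exact sign-flip permutation test, p = 0.25). It was 5.20 points among the 312 strongest peaks and 0.898 points over all peaks of the lists, positive in 4 of 4 replicates in both (exact sign-flip permutation test, p = 0.125 each).

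**Figure D3:**
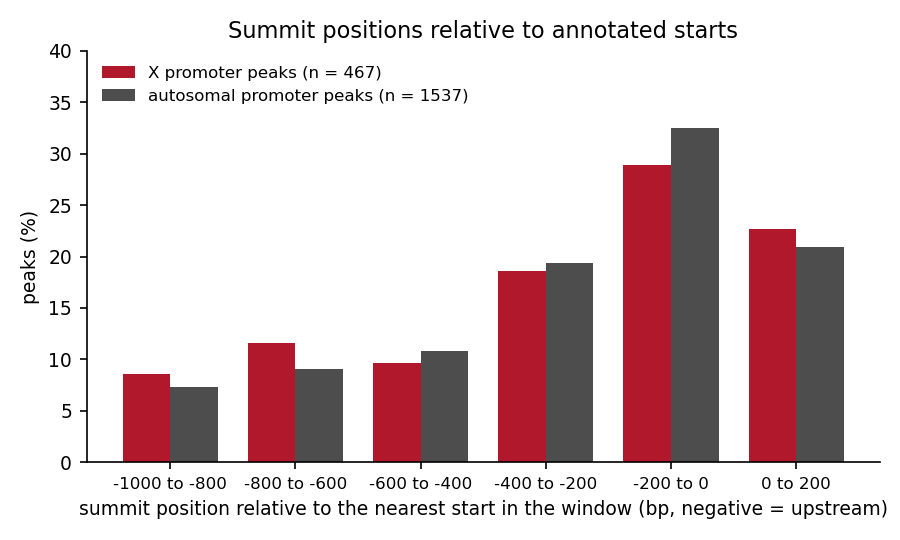
Position of pooled summits relative to the nearest annotated start in the window (200 bp bins, negative upstream) as a percentage of X promoter peaks (red, left bars) and autosomal promoter peaks (grey, right bars). Both sets are fullest in the 200 bp before the start, at 28.9% and 32.5%.

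Few X promoter peaks lay at shared promoters. Of the 467, 13 (2.78%) lay between divergent protein-coding starts, against 265 of the 1537 autosomal promoter peaks (17.2%). Of promoter-window length, 1.69% on X and 6.05% on the autosomes lay between such starts. In the replicates 1.73, 2.52, 1.85 and 2.94% of X promoter peaks lay there, against 15.3, 9.65, 13.9 and 11.0% of autosomal ones, and the 2 ranges did not overlap. A protein-coding start was in the window of 328 X promoter peaks (70.2%, with 66.2% of X window length) and of 82.0% of autosomal promoter peaks (83.4% of window length). The other 139 X promoter peaks had RNA gene starts only.

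The peaks were spread along the chromosome. Over 5 parts of X of equal length there were 66, 105, 98, 105 and 93 of them in order, or 64.8, 78.9, 81.6, 88.5 and 90.1 per Mb of promoter window. Neighbouring summits were a median of 21171.5 bp apart, 45 adjacent pairs lay within 2000 bp, and 9 adjacent pairs overlapped and so share reads. The largest number at 1 protein-coding gene was 4, at pab-2, a poly(A)-binding protein gene with several annotated starts, and grk-1 and myrf-2 had 3 each. A second copy elsewhere in the genome was found for 5 X promoter peaks (1.07%), against 64 autosomal ones (4.16%).

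By gene type, 317 of 2731 protein-coding genes on X (11.6%) had an X promoter peak in their window and 45 (1.65%) had one of the final list. These shares are the background for the gene groups that follow, which were chosen with earlier results known. A summit in a window shows where SEA-2 was recovered and not that the gene is regulated.

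A list of 8 genes of protein folding and of the unfolded protein response in the endoplasmic reticulum had peaks at 4 of its 4 X members. Besides hsp-3 (signal value 68.3, in the final list) these were pek-1, the PERK kinase gene (56.3), atf-6, a stress transcription factor gene (33.2), and pdi-2, a protein disulfide isomerase gene (32.5). The pek-1 peak ranked 159, 669, 10337 and 6368 and so was also weak in replicates 3 and 4. The atf-6 peak was among the strongest peaks of no replicate. The pdi-2 peak was absent in replicate 1 and ranked 1160, 9933 and 14173 in replicates 2 to 4, so it was among the strongest only in replicate 2.

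Regulators of transcription came next. Nuclear hormone receptor genes had peaks at 6 of 25 X members, with nhr-3 (signal value 73.6, ranks 120, 3727, 90 and 352) next to nhr-1 in strength and both in the final list. The others were nhr-48 (57.2), nhr-32 (41.1), nhr-25 (41.0), which acts in larval moulting, and nhr-281 (31.3). The nhr-25 peak was among the strongest peaks of no replicate. Chromatin factor genes had peaks at 5 of 18. Besides bet-2 these were utx-1, a histone H3 demethylase gene (59.9, in the final list), the SET domain genes set-20 (42.9) and set-6 (38.4), and the linker histone gene his-24 (32.8). Homeobox genes had peaks at 2 of 23, the POU gene ceh-18 (39.3) and the Pax gene vab-3 (32.7). Of 11 other transcription factor genes, 3 had peaks: lin-15B (78.8, in the final list), nfya-1 (33.9) and unc-3 (32.1). The his-24 peak was among the strongest of no replicate, and those at set-6, ceh-18, vab-3 and unc-3 of 1 replicate each.

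The heterochronic genes, which time larval cell fates, had peaks at 3 of 6 X members and none in the final list. The peaks lay 781 bp upstream of the Argonaute gene alg-1 (41.7), 158 bp upstream of the casein kinase gene kin-20 (36.8) and 967 bp upstream of lin-14 (32.4). The final-list peak at F46F2.9 (84.5) lay 841 bp downstream of the kin-20 start, outside its window, and is not counted here. The lin-14 peak was among the strongest of no replicate, and the alg-1 peak of 1 replicate. In the list of sex determination and dosage compensation, the 1 gene of 6 with a peak was sdc-1, a zinc finger gene of both processes (32.1), also among the strongest peaks of no replicate. Of the others, the X signal genes sex-1, fox-1 and ceh-39, the switch gene xol-1 and sdc-2, a gene of sex determination and dosage compensation, had no X promoter peak. Pooled peaks lay within 5000 bp of all of these except sdc-2, the strongest at order 458 of the pooled list near ceh-39.

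Cell-surface, signalling and metabolic groups followed. The proton pump genes vha-15 (65.1, in the final list) and vha-12 (43.2) were 2 of 3 X members. The 14-3-3 gene ftt-2 was the single X member and is described above, and rpl-11.2 was 1 of 2 ribosomal protein genes on X. Receptor tyrosine kinase and Wnt genes had 2 of 7, lin-18, a Ryk receptor gene (38.99), and sem-5, a Grb2 adaptor gene (31.6). Synapse and neuron genes had 2 of 14, the Munc18 gene unc-18 (72.2, in the final list) and unc-115 (56.9), whose peak ranked 8 in replicate 2 and 17646, 6124 and 9445 in the others. Muscle genes had 2 of 10, the troponin I gene unc-27 (42.8) and the actin gene act-4 (36.1, among the strongest peaks of 1 replicate).

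Among further gene families, cuticle collagen genes had peaks at 1 of 27 (col-177, signal value 30.7), chemoreceptor genes at 1 of 33 (srh-11, 31.1) and neuropeptide genes at 2 of 35 (nlp-3, 34.9, and flp-12, 32.1). The srh-11 and flp-12 peaks were among the strongest of no replicate, and the col-177 and nlp-3 peaks of 1 replicate each. The 5 vitellogenin genes and the 2 insulin-like peptide genes on X had no X promoter peak. No gene of the proteasome or mitochondrial respiration lists lies on X.

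Of 74 microRNA genes on X, 7 (9.46%) had an X promoter peak. The peak at mir-54, mir-55 and mir-56 lay 346 bp upstream of mir-54 and was in the final list, and a weaker peak (37.3) lay 998 bp upstream of mir-54. A peak 8 bp upstream of mir-73 (43.7) also had mir-74 in its window, and a peak 105 bp upstream of mir-239.2 (34.9) had mir-239.1.

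GC content was higher at X promoter summits than beside them. Within 50 bp of the summit it averaged 43.2%, against 36.0% in windows centred 250 bp to each side, and promoter windows on X averaged 35.4% when cut into pieces of the same length. The difference was 7.21 points at X promoter peaks, 5.48 at autosomal promoter peaks and 2.80 at X peaks outside promoters. It was larger in the final list, where X promoter summits averaged 50.5% and their flanks 34.3%, a difference of 16.2 points. Autosomal promoter summits in the final list averaged 50.01% and their flanks 37.7%, a difference of 12.3 points. In the final list the X and autosomal sets thus differed more in their flanks than at their summits. Over 4 parts of the X promoter peaks by signal value the difference was 13.1, 6.94, 5.39 and 3.39 points from the strongest to the weakest.

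On each replicate's own X promoter peaks the difference was 5.13, 8.31, 3.52 and 3.15 points, or 5.03 ± 2.35 points, positive in 4 of 4 (exact sign-flip permutation test, p = 0.125), and it averaged 10.9 points over the 312 strongest and 2.02 points over all peaks. At autosomal promoter peaks it was 3.72, 6.76, 2.65 and 2.48 points. X exceeded the autosomes in each replicate, by 1.12 ± 0.42 points (4 of 4, exact sign-flip permutation test, p = 0.125), though the values of the 2 classes overlap between replicates. Replicates 1 and 2 averaged 1.48 points and replicates 3 and 4 averaged 0.769 points. The excess was 0.496 points over all peaks. It was 1.51 points over the 312 strongest (exact sign-flip permutation test, p = 0.25). Among peaks with a −log10 q-value of at least 2 it was 0.941 points (exact sign-flip permutation test, p = 0.625). In neither of these stronger sets was the sign the same in every replicate.

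**Figure D4:**
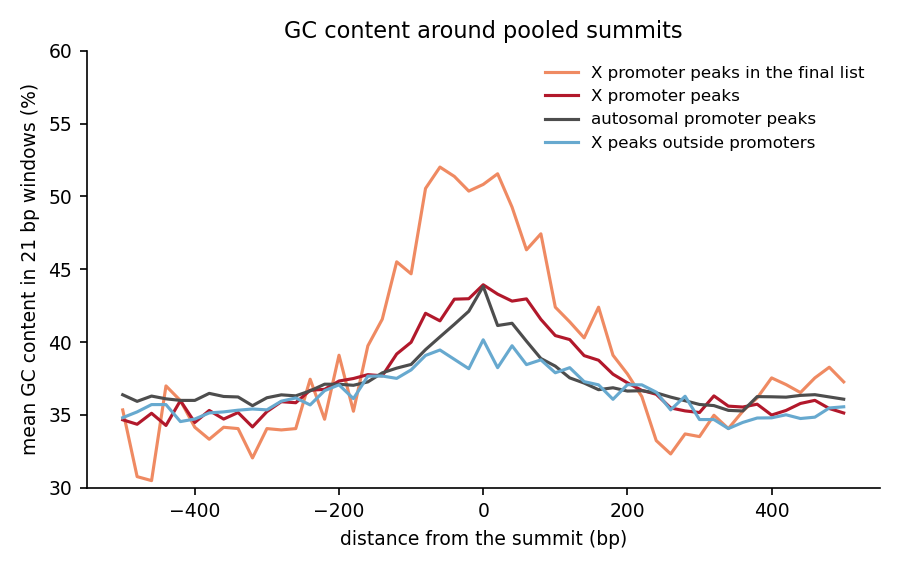
Mean GC content (percent, in 21 bp windows) by distance from the pooled summit for X promoter peaks in the final list, all X promoter peaks, autosomal promoter peaks and X peaks outside promoters. The final-list X promoter peaks average 50.5% within 50 bp of the summit, all X promoter peaks 43.2%, autosomal promoter peaks 41.9% and X peaks outside promoters 39.1%. In the windows of the same length centred 250 bp to each side, the means of the 4 sets lie between 34.3 and 36.4%. The drawn curves vary more, and the final-list one is at 30.5% at −460 bp and 38.3% at 480 bp. Autosomal promoter peaks in the final list, which average 50.01% within 50 bp of the summit, are not drawn.

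GAGA-type words recurred at X promoter summits, as in the printed AH9.7 and nhr-1 sequences. All motifs were searched on both strands within 50 bp of the summit, so GAGAGA also stands for TCTCTC, and every GAGAGA and GTCTC contains GAGA or its complement. GAGAGA was present at 91 of 467 X promoter summits (19.5%), 7.17% of their flanks and 6.04% of X promoter windows cut to the same length. At autosomal promoter summits it was present at 19.3%, and in autosomal windows at 6.17%. In the replicates it was at 17.8, 17.9, 17.8 and 13.97% of X promoter summits and 14.7, 19.1, 16.9 and 11.8% of autosomal ones, a difference of 1.25 ± 1.82 points (3 of 4 positive, exact sign-flip permutation test, p = 0.375, adjusted p = 0.469 over 10 motifs). Among the 312 strongest peaks the difference was −1.37 points, so the sign was not stable.

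The word GTCTC was rarer at the strongest X promoter peaks than at the strongest autosomal ones. It was at 14 of the 52 final-list X promoter summits (26.9%), against 81 of the 162 autosomal ones (50%), with 11.0% of X and 12.1% of autosomal promoter windows holding it. Among the 312 strongest peaks of each replicate it was at 32.1, 41.8, 32.7 and 32.5% of X promoter summits and 42.9, 44.5, 40.7 and 35.2% of autosomal ones. X was lower in 4 of 4 replicates, by a mean of −6.04 points (exact sign-flip permutation test, p = 0.125), although the ranges overlap. Over the 3912 strongest the difference was −1.75 ± 2.36 points (4 of 4 negative, exact sign-flip permutation test, p = 0.125, adjusted p = 0.312) and −0.592 points without replicate 4. Over all pooled peaks 25.1% of X and 26.0% of autosomal promoter summits held it. GTCTC was among the listed motifs, but it was singled out for this description after its values were seen. The final list and the replicate lists share reads, so they are no independent checks of each other.

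The word CCTCTC went the other way and was picked after its values were seen, as the 6-base word of 2080 whose share at X promoter summits most exceeded the autosomal share. It was at 13.7% of X promoter summits and 8.46% of autosomal ones in the pooled list, with 3.598% of X and 3.02% of autosomal windows holding it. In the final list it was at 15 of 52 (28.8%) and 25 of 162 (15.4%). Among the 312 strongest peaks of the replicates it was at 33.9, 27.3, 15.4 and 17.5% of X promoter summits and 14.3, 14.4, 12.96 and 14.1% of autosomal ones, with replicates 1 and 2 further apart than replicates 3 and 4. Among the 3912 strongest it was at 10.4, 12.6, 9.72 and 8.09% of X promoter summits and 5.94, 8.52, 8.15 and 7.06% of autosomal ones. The word was picked from the pooled list made from these same replicates, so its direction in them is no independent check. CCTCTC contains TCTC and so is counted in GAGA as well.

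**Figure D5:**
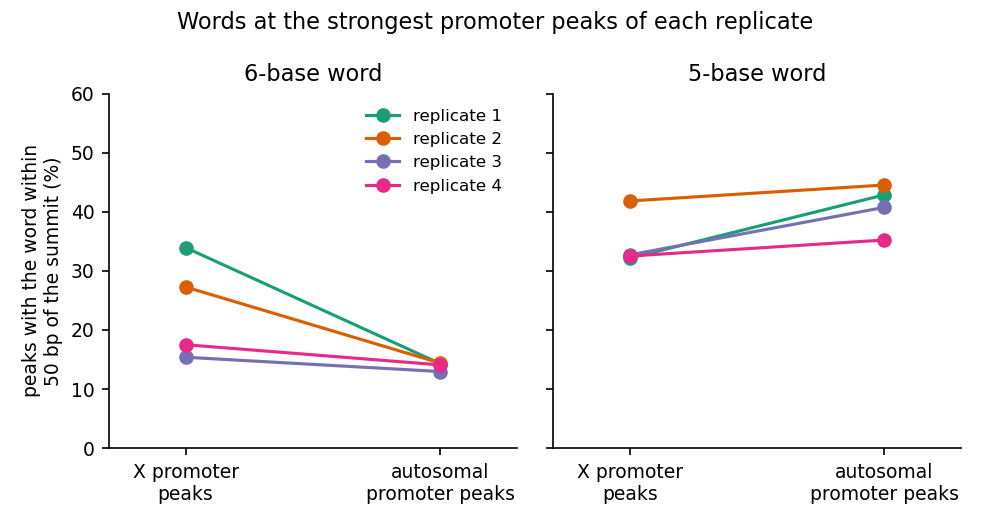
Share of the promoter peaks among the 312 strongest of each replicate that hold the 6-base word CCTCTC (left panel) or the 5-base word GTCTC (right panel) within 50 bp of the summit, at X promoter peaks and autosomal promoter peaks, 1 line a replicate. The lines for CCTCTC run down from X to the autosomes in all 4 replicates and those for GTCTC run up. CCTCTC was picked for this difference in the pooled list made from the same replicates, and GTCTC was singled out after its values were seen.

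The word ACGCAG, one of the 5 whose share at X promoter summits most exceeded that of the flanks, was at 10.5% of the summits, 1.71% of the flanks and 1.904% of X promoter windows. It was about as frequent at autosomal promoter summits (10.3%), with 2.21% of autosomal windows holding it. Its longer form GAGACGCAG, picked after the printed sequences were seen, was at 20 X promoter summits (4.28%), 0.107% of flanks and 0.246% of X promoter windows. At autosomal promoter summits it was at 82 (5.34%), with 0.813% of flanks and 0.618% of windows, and at X summits outside promoters it was at 5 (1.23%). It was at 5 of the 52 final-list X promoter summits (9.62%), which are aps-2, cebp-1, nhr-1, C30E1.9 and vha-15. Among the weaker 15 were the summits at sdc-1, at the zinc finger gene lsy-2 and at the Mediator gene dpy-22. Among the 312 strongest peaks of each replicate it was at 7.14, 14.5, 7.69 and 15% of X promoter summits and 9.94, 11.0, 9.88 and 5.63% of autosomal ones, in no constant order.

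Words tied to other features of X were rare. CGCAGGG, a core of the published motif of dosage compensation recruitment sites, was at 7 X promoter summits (1.499%), against 8 autosomal ones (0.520%), with 0.184% of X and 0.166% of autosomal windows holding it. The longer GCGCAGGG was at 3 X promoter summits (0.642%) and at 0 of the 1537 autosomal ones, which allows a share of up to 0.195%. It was in 0.0459% of X and 0.0349% of autosomal windows. In replicate 2 it was at 0.459% of X promoter summits and 0.0804% of autosomal ones. At X summits outside promoters both words were at 5 of 408 (1.23%). In the replicates CGCAGGG was at 0.247, 0.688, 0.926 and 0.735% of X promoter summits and 0.207, 0.482, 0.279 and 0.3797% of autosomal ones, a difference of 0.312 ± 0.258 points on very few peaks (4 of 4 positive, exact sign-flip permutation test, p = 0.125, adjusted p = 0.312).

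TTTCAG, the letters of the splice acceptor in this organism, was rarer at summits than beside them in both classes. It was at 7.07% of X promoter summits and 13.7% of their flanks, against 10.7% of autosomal promoter summits and 19.3% of their flanks, and 15.3% of X and 19.5% of autosomal windows held it. In the replicates it was at 8.64, 6.88, 8.56 and 10.8% of X promoter summits and 12.9, 12.3, 14.3 and 13.9% of autosomal ones, and these did not overlap. The difference was −4.62 ± 1.20 points (4 of 4 negative, exact sign-flip permutation test, p = 0.125, adjusted p = 0.312), in the direction in which the windows of X and the autosomes also differ. Among the 312 strongest peaks it was 0.583 points, with the sign reversed.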

How the data were processed

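SEA-2 fused to GFP was measured by ChIP-seq in 4 biological replicates of whole L3 larvae. Per the file headers and the deposited file records, the lists are narrowPeak files on ce11: 1 list a replicate, a pooled list called from all 4 alignments, and a final list kept from it by a threshold on the irreproducible discovery rate. All were called against 1 shared control. The signal value of each peak, the −log10 of its q-value and its summit offset (a whole number of bases from the peak start) are the authors' deposited values. The signal scale is not stated, so signal was compared within 1 list and never between lists. Aligner, caller and threshold were not given in the sources used here, nor was the read depth, which is unknown. The lists on ce10 were not used.

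Summits were placed on Ensembl release 115 gene models of WBcel235 (ce11) and coordinates are 1-based. Symbols came from RefSeq through WormBase identifiers, which matched 46881 of 46890 genes. Scripts used Python 3.11.15 with numpy 2.4.6, pandas 2.3.3 and scipy 1.17.1, and blastn 2.17.0 for second copies (at least 50 bp at 90% identity). Replicates were compared through equal numbers of their strongest peaks, 3912 each unless stated. The single test was a two-sided exact sign-flip permutation test over the 4 replicates, whose smallest p is 0.125, so the design cannot reach 0.05. The 10 motif tests were adjusted by Benjamini-Hochberg. Nothing in the labels says that the replicates came from separate cultures beyond calling them biological replicates, so p-values concern these samples only. The p is 0.125 whenever all 4 values share a sign, whatever their spread. Exact (Clopper-Pearson) 95% intervals cover counting error only. Scripts were tested on simulated data.

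The peaks, gene lists and motifs were chosen with earlier results of these data known. Genes named are those with starts in the windows of the 20 strongest peaks, list genes with a peak (up to 6 a list by signal value), and, among peaks present in all 4 replicates, the 5 with the best lowest rank and the 5 of the final list with the largest difference of rank. The ttyh-1 and F49E10.12 peaks were added with their ranks in view. Alternatives covered the promoter window, the tRNA distance, the number of strongest peaks, the overlap rule, the sequence window, stronger peaks, second copies and each replicate left out.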

Additional observations from a re-analysis of the deposited data

Results flagged for a closer look

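Each set of 4 replicate values was searched for a replicate far from the other 3 (15 of 56 sets had one). Of the 15, 11 were ranks of single peaks. The nominal chance rate of about 1 set in 20 was not tested for ranks, so no excess over chance is shown. In replicate 2, ranks stood apart at F52D10.7 and the overlapping F52D10.9 (4400 for both, 1 shared peak), F13D11.9 (211), nspc-17 (7616) and T04C10.8 (4293). Replicate 3 stood apart at aps-2 (588) and cebp-1 (1379). Replicate 4 stood apart at nhr-1 (1658), sms-2 (1286), nipi-3 (6653) and apa-2 (12625). Replicate 1 stood apart at none of these. Among motif shares, replicate 4 was low for GAGAGA at X promoter summits (13.97%). Replicate 2 was high for GCGCAGGG at X promoter summits (0.459%) and autosomal promoter summits (0.0804%), each resting on 1 or 2 peaks. Replicate 1 was high for CACGTG at X promoter summits (2.47%).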

How the results depend on the processing

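Of 219 recomputed values, 17 reversed direction. The others kept their direction, with 8 classed as moved in size and 194 as the same. For differences tested over the replicates, the same means an unchanged direction, whatever the size. GC at X summits over flanks, 5.03 points in the main run, was so classed at 10.9 (312 strongest) and 2.02 (all peaks). The X minus autosomal GTCTC difference, −1.75 in the main run, was so classed at −6.04 (312 strongest). The 194 therefore do not show that sizes were stable. Any count stayed within 1.5 times its main value, though the size of many differences moved with the number of strongest peaks taken. The X excess of promoter peaks stayed between 3.30 and 7.15 points under every alternative run, and leaving out 1 replicate gave 5.18 to 6.54. Leaving out 1 replicate gave 1.70 to 4.15 points for the X minus autosomal share found, 3.93 to 5.65 for GC at X summits over flanks, 0.981 to 1.27 for GC on X minus autosomes, 0.585 to 1.37 for summits upstream and 0.641 to 2.05 for GAGAGA. The GAGAGA difference reversed with the 312 strongest peaks (−1.37), −log10 q of at least 2 (−4.62) and the stronger 50% (−0.00529), as did the share found at that q (−2.29). For other motifs, the X minus autosomal GAGA difference turned positive with the 312 strongest (3.59), 100 bp to each side of the summit (0.0911), that q (0.783), the stronger 50% (2.10) and without replicate 3 (0.0868; −2.33 without replicate 1); CACGTG did so with the 312 strongest (2.43), 100 bp to each side (0.0394), that q (1.33) and the stronger 50% (0.117); TTTCAG with the 312 strongest (0.583) and that q (1.85); and TATAAA with all peaks (0.0150) and without replicate 3 (0.158; −0.706 without replicate 4). For pooled X promoter peaks, GC over flanks was 6.02 with 100 bp to each side, 14.8 at that q and 10 in the stronger 50%. GAGAGA over flanks was 5.46 with 25 bp to each side, 16.5 with 100 bp to each side and 21.4 at that q. The share in the final list was 100% at that q and 22.2% in the stronger 50%, because the final list holds the strongest peaks. The causes of the other changes were not tested. No paired analysis was possible because there is 1 group of samples; differences between classes of peaks were taken within each replicate.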
